A study of Mus musculus with 6 samples.

Results

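Lung antigen presenting cells of smoke-exposed mice lacking Spp1 were set against those of smoke-exposed wild type mice. The tested mice were Spp1-/- mice given cigarette smoke (2 arrays), and the mice they were set against were wild type mice given cigarette smoke (2 arrays). These 4 of the 6 arrays of the series were chosen by their titles. The other 2 arrays came from wild type mice in room air, and their values are given for orientation but did not enter the fit. All mice were female C57BL/6 and the exposure lasted 4 months. The genotypes were compared under smoke alone, as Spp1-/- mice without smoke were not analysed here. The labels do not give the age of the mice, how the cells were isolated, how the Spp1 allele was made, or whether replicate arrays stand for different mice. The p-values therefore measure only the spread between these arrays, which may be technical.

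Spp1 encodes osteopontin, a secreted phosphoprotein of the matrix that also acts as a cytokine through integrins and Cd44. Macrophages and dendritic cells, the professional antigen presenting cells, make it, and it has been studied in emphysema and in T cell polarisation. Type I interferons signal through the receptor Ifnar1 and Ifnar2 and the kinases Jak1 and Tyk2 to the transcription factors Stat2 and Irf9, which bind a repeated GAAA element before interferon-stimulated genes. Irf7 is both a product of this pathway and a factor that drives further interferon production.

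Each of 19057 annotated genes was represented by its brightest probe over the 6 arrays, in log2 intensity. Values lay between 6.62 and 16.01. Over all probes their median was 7.26, and a value below it is called dim. The 2 Spp1-/- smoke arrays correlated at Pearson r = 0.994 and the 2 WT smoke arrays at r = 0.992 across all probes. The median SD of a gene between the arrays of a group was 0.062 in Spp1-/- smoke and 0.066 in WT smoke. No probe was named for Spp1, so the genotype labels were not checked on the targeted gene. Genes of antigen presenting cells were bright in all 4 arrays. Itgax (CD11c) stood at 12.24 and 12.47 in Spp1-/- smoke, against 12.29 and 12.19 in WT smoke. The invariant chain gene Cd74 stood at 12.61 and 12.90, against 12.95 and 12.93. The dendritic cell receptor gene Flt3 was near the median of all probes, at 7.26 and 7.34 in Spp1-/- smoke and 7.29 and 7.33 in WT smoke. The preparations also held lung epithelial RNA, as the surfactant gene Sftpc stood at 12.18 and 11.49 in Spp1-/- smoke, against 11.89 and 12.47 in WT smoke.

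The largest differences between the genotypes belonged to interferon-stimulated genes, and they were higher in Spp1-/- cells. Most genes hardly differed: 98% of the 19057 lay within 0.5 of 0 on the log2 scale, and the median difference over all genes was -0.0029. In Spp1-/- cells 31 genes were at least 2-fold higher (0.163% of all genes) and 5 at least 2-fold lower (0.0262%), and in all 36 both arrays of one group lay beyond both of the other. Of the 31, 19 were on the interferon lists described below, which is 61.3% of the 31 and 9.36% of the 203 measured genes on those lists. None of the 203 was 2-fold lower.

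**Figure D1:**
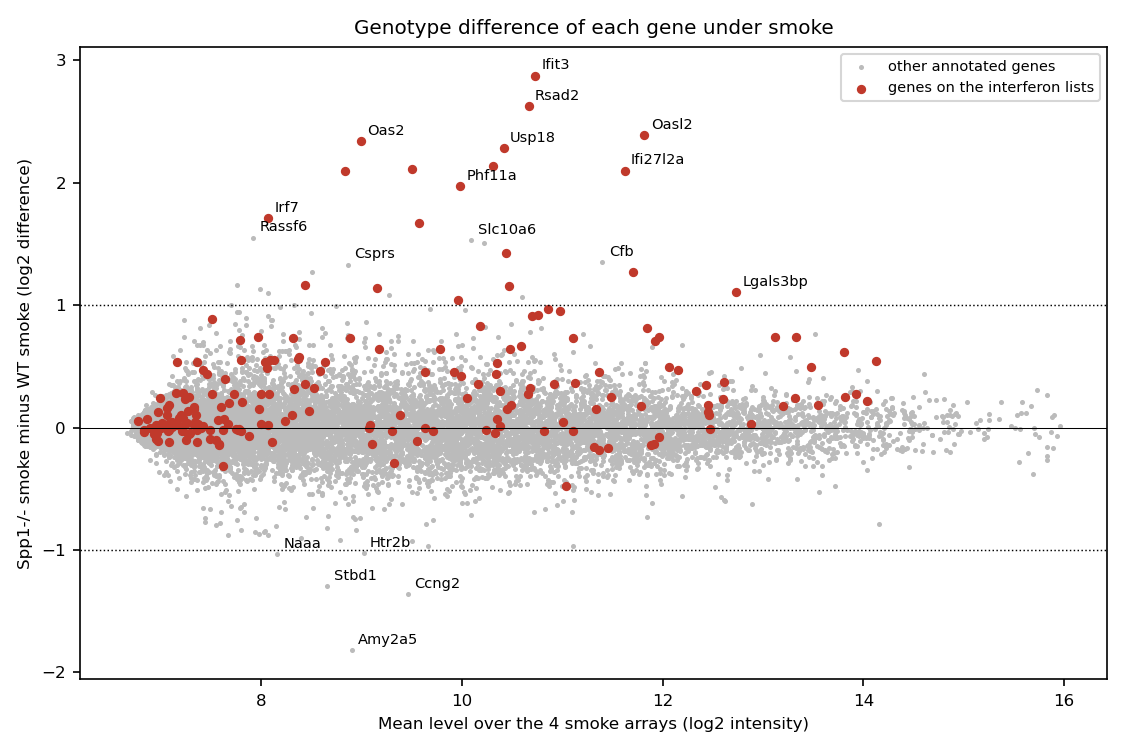
The difference of each of the 19057 genes (Spp1-/- smoke minus WT smoke, log2) is plotted against its mean level over the 4 smoke arrays (log2 intensity), with genes on the interferon lists in red and 2-fold differences marked by dotted lines. Of the 31 genes above the upper line 19 are red, and none of the 5 below the lower line is.

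A single gene passed limma's test with Benjamini-Hochberg adjustment over all genes at 0.05. This was Ifit3, a protein of the interferon-induced IFIT family that binds viral RNA complexes with its relatives, and it rose in Spp1-/- cells. Ifit3 stood at 12.11 and 12.23 in Spp1-/- smoke, against 9.25 and 9.33 in WT smoke. This was a log2 difference of 2.87 ± 0.08 (SE), or 7.32-fold (limma adjusted p = 0.0314). Thus 1 gene was called higher (0.00525% of those tested) and 0 were called lower (0%). At an unadjusted limma p under 0.05 there were 1419 genes (7.45%), of which 788 were higher (4.13%) and 631 lower (3.31%), where chance alone would give about 953. The call rested on all 4 arrays. Without Spp1-/- smoke replicate 1 the adjusted p of Ifit3 was 0.355, without Spp1-/- smoke replicate 2 it was 0.536, without WT smoke replicate 1 it was 0.336, and without WT smoke replicate 2 it was 0.259. The difference itself stayed between 2.81 and 2.93 in these fits. A second, dimmer probe of Ifit3 (mean 7.48) differed by only -0.06, and the mean of both probes gave 1.40 (adjusted p = 0.098). Ifit3 has a near-identical copy, Ifit3b, for which no probe was named, so the signal may include both.

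Promoter stretches of 7 interferon genes whose windows hold the motif below are shown, as 8 of the 10 leading higher genes were on interferon lists. Of the printed genes, only Ifit3 and Phf11a are among those leading genes. Factor binding was not measured. Windows from RefSeq (GRCm38.p6) ran from 250 bases before to 50 bases after each gene's start. The motif GAAANNGAAA was searched on both strands, so that its complement TTTCNNTTTC also counts, and its letters are in capitals. Each stretch below is written 5′ to 3′ along the gene's own strand and ends before the gene's start.
Ifit3: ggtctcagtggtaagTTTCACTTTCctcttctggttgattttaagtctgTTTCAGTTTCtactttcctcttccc
Rsad2: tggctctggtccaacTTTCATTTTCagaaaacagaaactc
Phf11a: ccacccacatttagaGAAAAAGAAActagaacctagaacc
Cxcl10: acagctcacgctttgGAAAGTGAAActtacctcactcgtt
Irgm2: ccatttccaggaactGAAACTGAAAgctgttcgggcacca
Igtp: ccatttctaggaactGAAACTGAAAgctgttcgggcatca
Gbp2: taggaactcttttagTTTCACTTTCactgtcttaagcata

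The stretch of Ifit3 lies at chr19:34583358-34583431 on the plus strand, with matches 156 and 122 bases before the start. That of Rsad2 is at chr12:26456548-26456587 (minus strand, match 120 bases before the start) and that of Phf11a at chr14:59297527-59297566 (minus strand, 29 bases). Cxcl10 has its stretch at chr5:92349078-92349117 (minus strand, 213 bases), and the neighbouring GTPase genes Irgm2 and Igtp have closely similar ones at chr11:58214898-58214937 and chr11:58199507-58199546 (plus strand, 64 and 34 bases). Gbp2 has its stretch at chr3:142620589-142620628 (plus strand, 59 bases). All of these except Ifit3 were chosen for printing after their values were seen. The motif was found in 3.44% of all 32851 windows, and in at least 1 window of 3.99% of the 15237 measured genes that have one. It was found for 58 of 160 measured genes on the interferon lists (36.2%) and for 5 of 24 genes that were 2-fold higher (20.8%). Other named genes whose windows hold the motif are not printed, among them Ifna1 (difference 0.07), Gbp5 (0.28) and Ifitm3 (1.27). Among genes whose groups did not overlap, it was found for 5.47% of those higher in Spp1-/- cells and 3.71% of those lower. Of the 10 leading higher genes described next, 7 had a window and 2 of these (Ifit3 and Phf11a) held the motif, against 0 of 9 windows of the leading lower genes. The windows of Oasl2, Slfn1, Helz2, Ifi47 and Slc10a6 did not hold these letters.

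The 10 leading genes in the higher direction were those with the smallest p whose groups did not overlap and whose higher group was above the median of all probes. Ifit3 was first, and 7 of the other genes were interferon-stimulated. Phf11a, a PHD finger gene of an interferon-induced cluster, stood at 10.99 and 10.95 in Spp1-/- smoke, against 9.08 and 8.91 in WT smoke (log2 difference 1.97 ± 0.09 SE, limma adjusted p = 0.0824). A second probe of Phf11a gave nearly the same difference, 1.98. Usp18, the protease that removes Isg15 from proteins and dampens the interferon receptor, stood at 11.59 and 11.52, against 9.15 and 9.39 (2.28 ± 0.11, adjusted p = 0.0824). In both genes the 4 arrays fell into 2 tight pairs.

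Ifi27l2a, a small mitochondrial and membrane protein gene of the Ifi27 family, stood at 12.64 and 12.70 in Spp1-/- smoke, against 10.44 and 10.71 in WT smoke (2.10, adjusted p = 0.113). Oasl2, an oligoadenylate synthetase-like gene, stood at 12.93 and 13.09, against 10.45 and 10.80 (2.39, adjusted p = 0.138). Fainter probes of Oasl2 gave 0.83 and 0.04, and the single fainter probe of Usp18 gave -0.01. Helz2, a helicase gene and co-activator, stood at 10.44 and 10.52, against 9.40 and 9.48. Ifi47, an interferon-inducible GTPase, and Slfn1, a schlafen family gene that restrains T cell growth, differed by 1.15 and 1.67 (adjusted p = 0.162 for each of these genes).

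The leading higher genes outside the interferon lists were Slc10a6 and Csprs. Slc10a6, a transporter of sulphated steroids, stood at 10.88 and 10.84 in Spp1-/- smoke, against 9.27 and 9.38 in WT smoke (1.53, adjusted p = 0.0824). Its second, fainter probe gave 0.47. Csprs, a gene of a multi-copy cluster whose copies the probe may not tell apart, stood at 9.46 and 9.60, against 8.23 and 8.17 (1.33, adjusted p = 0.138). The call for these genes turned on the filter and the variance model. When only the brighter 50% of probes were kept, 6 genes passed limma's adjusted threshold: Ifit3, Usp18, Phf11a, Ifi27l2a, Oasl2 and Slc10a6, with adjusted p between 0.0152 and 0.0448. With an intensity trend and a robust prior 31 genes passed upward and 3 downward.

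**Figure D2:**
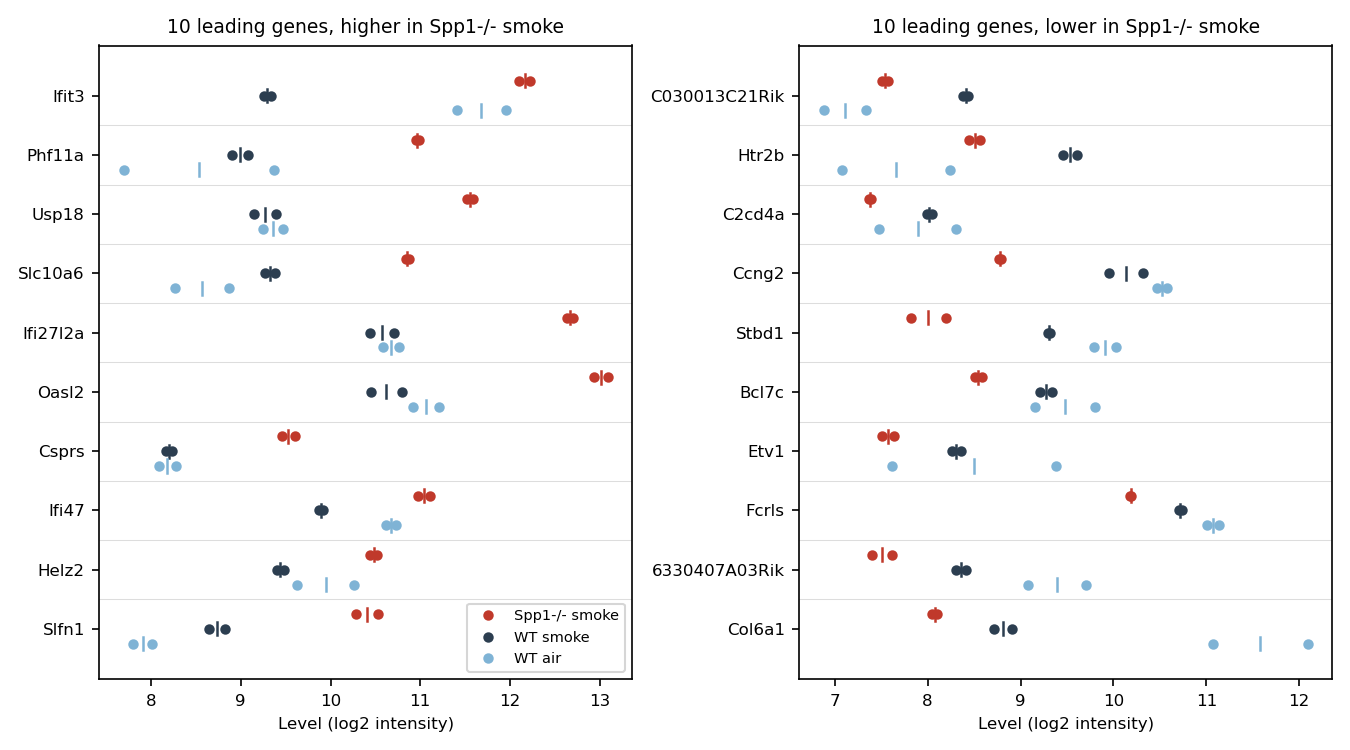
Levels (log2 intensity) of the 10 leading higher genes (left) and the 10 leading lower genes (right) are shown for each array, with Spp1-/- smoke in red, WT smoke in dark blue, WT air in light blue and a tick at each group's mean. The 2 Spp1-/- smoke points lie beyond the 2 WT smoke points in all 20 genes, which the choice of genes required except for Ifit3. WT air lies closer to WT smoke for Usp18, Ifi27l2a and Csprs but near Spp1-/- smoke for Ifit3.

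The interferon genes were described in 11 lists by role, starting with the ligands. The ligand genes differed little. Of 18 measured ligand genes, 0 had an unadjusted limma p under 0.05 (7.45% over all genes). Their differences ran from -0.11 to 0.07 (median -0.02). Their mean level was 7.29 and 7.27 in Spp1-/- smoke, against 7.315 and 7.28 in WT smoke, near the median of all probes. At such levels a difference may not be measurable on this array, so the list does not show that the ligands were unchanged. Ifnb1, the interferon beta gene, stood at 6.96 and 6.90 in Spp1-/- smoke, against 6.90 and 7.05 in WT smoke, all of them dim. Ifng, the interferon gamma gene of T and NK cells, stood at 7.34 and 7.37, against 7.39 and 7.33. The interferon alpha genes are near-identical copies, and their probes may not tell them apart. Ifna13 had the smallest p of the ligands (difference -0.11, limma adjusted p = 0.786).

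Among 17 receptor and JAK-STAT genes, 5 were higher in both Spp1-/- arrays than in both WT smoke arrays and 2 lower, that is without overlap between the groups. Over all genes 17.4% were higher without overlap and 18.9% lower. The list's median was 0.02, against -0.0029 over all genes. The receptor subunit gene Ifnar1 was dim, at 6.86 and 6.77 in Spp1-/- smoke, against 6.79 and 6.88 in WT smoke, and the kinase gene Tyk2 stood at 10.84 and 10.76, against 10.71 and 10.95. The groups overlapped in both. Stat2 stood at 9.94 and 10.35, against 9.66 and 9.72 (0.46 ± 0.15 SE, adjusted p = 0.627), and Irf9 at 10.40 and 10.72, against 10.01 and 10.24 (0.44 ± 0.15, adjusted p = 0.632). Apart from Usp18, no member of this list had a larger positive difference than Stat2. Socs3, a feedback inhibitor of cytokine receptors, was slightly lower at 11.22 and 11.25, against 11.42 and 11.36.

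Of 8 interferon regulatory factor genes, 3 were higher without overlap and 2 lower (17.4% and 18.9% over all genes), the median was -0.02, and Irf7 stood apart. It had 8.70 and 9.14 in Spp1-/- smoke, against 7.13 and 7.29 in WT smoke, where 1 of the 2 values was below the median of all probes. The difference of 1.71 ± 0.17 (SE), or 3.27-fold, did not pass (limma adjusted p = 0.336). Irf1, a factor induced by interferon gamma, differed by 0.23 and Irf9 by 0.44. Irf4 and Irf8, factors of dendritic cell development, differed by -0.29 and -0.17, and Irf2 by -0.04. None of these passed (adjusted p between 0.632 and 0.965).

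Of 22 nucleic acid sensor and adaptor genes, 13 were higher without overlap and 1 lower (17.4% and 18.9% over all genes), with a median of 0.18. The RNA helicases led: Ifih1 (MDA5) stood at 8.28 and 8.39 in Spp1-/- smoke, against 7.79 and 7.41 in WT smoke (0.74 ± 0.15 SE), and Dhx58 (LGP2) at 9.18 and 9.31, against 8.64 and 8.39 (0.73 ± 0.11). A second probe of Dhx58 gave 0.77. The nucleases Trex1 and Samhd1, which limit the DNA available for sensing, differed by 0.45 and 0.35, the endosomal RNA receptor Tlr3 by 0.55 and the nucleic acid sensor Zbp1 by 0.32. None passed (limma adjusted p between 0.428 and 0.617).

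The effector list held the largest differences. Of 18 genes, 12 were higher without overlap and 0 lower (17.4% and 18.9% over all genes), with a list median of 0.34. Higher at an unadjusted limma p under 0.05 were 9 (4.13% over all genes), and 6 were at least 2-fold higher (0.163%). Rsad2 (viperin), an enzyme that makes a chain-terminating nucleotide, stood at 11.72 and 12.23 in Spp1-/- smoke, against 9.36 and 9.34 in WT smoke (2.63 ± 0.19 SE, 6.18-fold, limma adjusted p = 0.162). Its neighbour Cmpk2, a mitochondrial nucleotide kinase gene, stood at 11.22 and 11.53, against 9.53 and 8.94 (2.14 ± 0.24). Ifit2 stood at 10.38 and 10.74, against 8.24 and 8.66 (2.11 ± 0.20), and its second probe gave 2.13.

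Ifitm3, a membrane protein that blocks viral entry, stood at 12.47 and 12.20 in Spp1-/- smoke, against 11.04 and 11.09 in WT smoke (1.27). Mx2, a dynamin-like GTPase, differed by 1.16 and Bst2 (tetherin) by 0.83. The probes of Ifit1 and Mx1 lay close to the median of all probes in the 4 arrays. Ifit1 stood at 7.32 and 7.20, against 7.23 and 7.39, and Mx1 at 7.24 and 7.20, against 7.08 and 7.21. They were named here after their values had been seen, and their groups overlapped.

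Oligoadenylate synthetases are antiviral enzymes that sense double-stranded RNA and make short adenylate chains. Of 12 measured genes, 12 had positive differences, the lowest being 0.0014, where 9262 of all 19057 genes had one. Of the 12, 8 were higher without overlap (17.4% of all genes), 3 were at least 2-fold higher (0.163% of all genes) and the median was 0.24. Oas2 stood at 9.82 and 10.51 in Spp1-/- smoke, against 7.92 and 7.73 in WT smoke (2.34 ± 0.25 SE, 5.05-fold). Oasl1, which represses translation of Irf7, stood at 9.64 and 10.11, against 7.57 and 8.01 (2.09 ± 0.23). Fainter probes of Oasl1 gave 0.88 and -0.01, and the mean of its probes was 0.99. Oas1g differed by 0.95 (0.44 for its second probe) and Oas1a by 0.73, although the Oas1 genes are close copies. None passed (limma adjusted p between 0.138 for Oasl2 and 0.541 for Oas1d among the 6 with the smallest p).

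Of 16 genes for ISG15 conjugation and for interferon-induced TRIM and PARP proteins, 12 were higher without overlap and 1 lower (median 0.23). The shares over all genes were 17.4% and 18.9%. Trim30a, a regulator of inflammatory signalling in mice, stood at 11.14 and 11.54 in Spp1-/- smoke, against 10.34 and 10.41 in WT smoke (0.97). Parp14 and Parp12, ADP-ribosyl transferase genes, differed by 0.71 and 0.58, the ubiquitin ligase gene Dtx3l by 0.53, Uba7, the activating enzyme of ISG15, by 0.46 and Trim34a by 0.43. Second probes gave 0.35 for Parp14 and 0.05 for Dtx3l. Isg15 itself was measured by a faint probe, at 7.74 and 7.81, against 7.60 and 7.55 (0.20).

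The interferon-inducible GTPases act on vacuoles that hold pathogens. Of 18 genes, 11 were higher without overlap and 0 lower (17.4% and 18.9% over all genes, list median 0.23). At least 2-fold higher was 1, Ifi47 (0.163% over all genes). Ifi47 stood at 10.98 and 11.11 in Spp1-/- smoke, against 9.91 and 9.87 in WT smoke. Irgm2 stood at 11.10 and 11.34, against 10.38 and 10.21 (0.92), and Gvin1 at 12.18 and 12.32, against 11.60 and 11.27 (0.81). Igtp differed by 0.64, Gbp2 by 0.66 and Gbp5 by 0.28.

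Of 37 other interferon-stimulated genes, 22 were higher without overlap and 1 lower (17.4% and 18.9% over all genes). At least 2-fold higher were 6 (0.163% over all genes), and the median was 0.27. Besides Ifi27l2a, Phf11a, Slfn1 and Helz2, the list was led by Phf11d, at 11.05 and 11.25 in Spp1-/- smoke, against 9.53 and 9.92 in WT smoke (1.42), and by Znfx1, a helicase that senses viral RNA, at 12.28 and 12.39, against 11.57 and 11.62 (0.74 ± 0.07 SE). Phf11a and Phf11d are close relatives, and a second probe of Phf11d gave 0.68. Lgals3bp, a secreted glycoprotein gene, was the remaining 2-fold member, at 13.11 and 13.46, against 12.17 and 12.18.

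Among 14 genes for interferon-inducible chemokines, cytokines and ligands, 10 were higher without overlap and 0 lower (median 0.30). The shares over all genes were 17.4% and 18.9%. Cxcl9 and Cxcl10 attract activated T cells through Cxcr3. Cxcl9 stood at 9.57 and 9.87 in Spp1-/- smoke, against 8.73 and 8.42 in WT smoke (1.14 ± 0.16 SE, limma adjusted p = 0.396). Cxcl10 stood at 7.92 and 7.99, against 7.07 and 7.06, which were dim values (0.89 ± 0.06, adjusted p = 0.162). Cd69, an early activation receptor, differed by 0.73 (-0.01 for its second probe), Ccl5 by 0.53, Il15 by 0.36 and the death ligand Tnfsf10 by 0.27.

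Of 24 genes of MHC class I and peptide loading, 10 were higher without overlap and 3 lower (17.4% and 18.9% over all genes, list median 0.21). The differences were smaller than those of the effectors: 0 were 2-fold higher (0.163% over all genes). H2-K1 stood at 14.22 and 14.01 in Spp1-/- smoke, against 13.50 and 13.51 in WT smoke (0.62 ± 0.09 SE). Psmb9, an immunoproteasome subunit gene, stood at 12.38 and 12.41, against 11.99 and 11.85 (0.47). The non-classical genes H2-T10, H2-T22 and H2-T23 differed by 0.91, 0.55 and 0.50. Other probes of H2-T23 gave -0.05 and 0.09, a second probe of H2-T10 gave 0.37, and class I genes share much sequence. Nlrc5, the transactivator of class I genes, differed by 0.35.

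Over the 11 interferon lists together, 106 of 203 genes were higher without overlap (52.2%, against 17.4% of all genes) and 13 were lower (6.4%, against 18.9%). At an unadjusted limma p under 0.05 there were 75 higher (36.9%, against 4.13% of all genes) and 0 lower (against 3.31%). The lists were chosen with earlier results of these data known, so these counts describe the lists and are no independent evidence of their direction. Fewer cells of a type and less RNA per cell cannot be told apart in these bulk preparations.

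**Figure D3:**
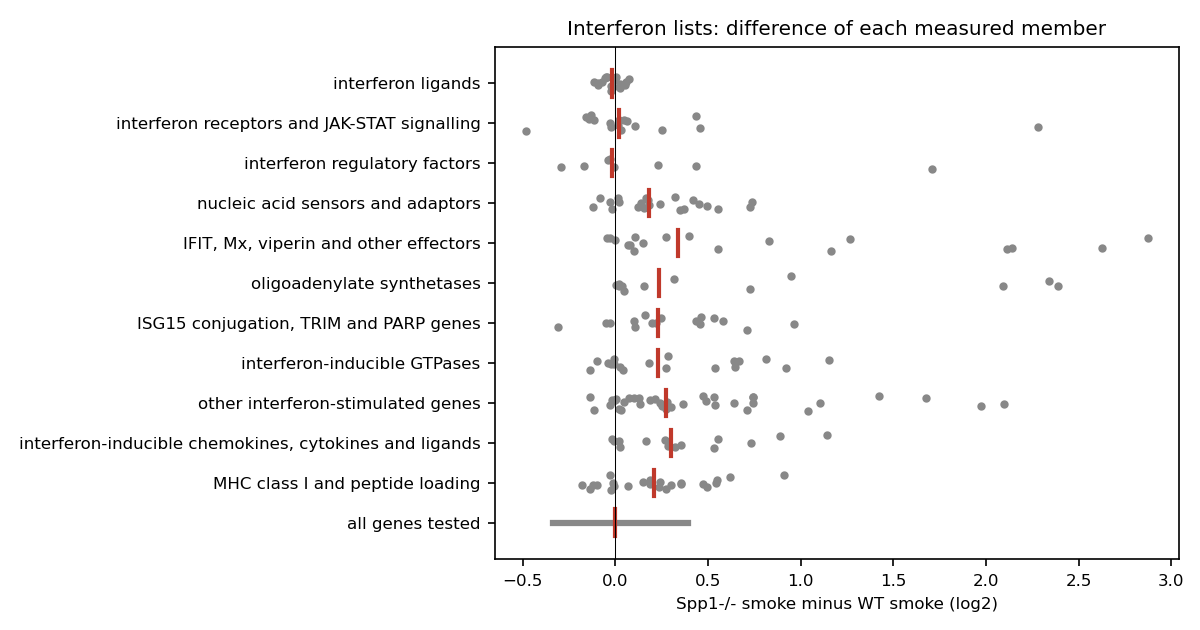
Each grey point is the difference of 1 measured gene (Spp1-/- smoke minus WT smoke, log2) on an interferon list, with the list's median as a red tick, and the bottom bar covers the central 95% of all 19057 genes (-0.34 to 0.39). The ligands stay between -0.11 and 0.07, while the effectors reach 2.87 and the oligoadenylate synthetases 2.39.

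Within the pairs, Spp1-/- smoke replicate 2 was above replicate 1 in 16 of the 19 interferon genes that were 2-fold higher, and in 69 of the 106 that were higher without overlap, against 48.1% of all genes. WT smoke replicate 2 was likewise above replicate 1 in 65 of the 106. The gap was widest among the named members for Oas2 (9.82 and 10.51) and Rsad2 (11.72 and 12.23), and Usp18 (11.59 and 11.52), Phf11a (10.99 and 10.95) and Ifitm3 (12.47 and 12.20) ran the other way. Mean levels of the oligoadenylate synthetase list were 8.73 and 8.87 in Spp1-/- smoke, against 8.04 and 8.06 in WT smoke. Those of the effectors were 9.39 and 9.42, against 8.55 and 8.63. The lists other than the ligands did not overlap between the genotypes on this measure, although the medians of the regulatory factors (-0.02) and of the receptor and JAK-STAT genes (0.02) were near 0 and single members, Irf7 (1.71) and Usp18 (2.28), were far above the rest.

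The wild type air arrays differed by gene. They also differed in cell type markers. The mean level of endothelium markers was 10.62 and 10.91 in WT air, against 8.55 to 8.89 in the smoke arrays. That of lung epithelium was 11.44 and 11.67, against 9.87 to 10.25. Alveolar macrophage markers were lower, at 11.04 and 10.94, against 11.61 to 11.78. T cell markers were close, at 8.96 and 8.99, against 8.94 to 8.99. WT air values may thus not stand for the same mix of cells without smoke. In 18 of the 19 interferon genes that were 2-fold higher, both WT air arrays lay below both Spp1-/- smoke arrays, Ifitm3 (12.95 and 12.87 in WT air) being the exception. In 10 of the 19 the WT air mean was above that of WT smoke. Usp18 had 9.25 and 9.47 in WT air, Ifi27l2a 10.77 and 10.59 and Irf7 7.33 and 7.66, close to their WT smoke values. Ifit3 had 11.95 and 11.41 and Cmpk2 10.84 and 9.86, above theirs. Rsad2 (9.15 and 8.75) and Slfn1 (8.01 and 7.80) were lower in WT air than in WT smoke in both arrays.

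**Figure D4:**
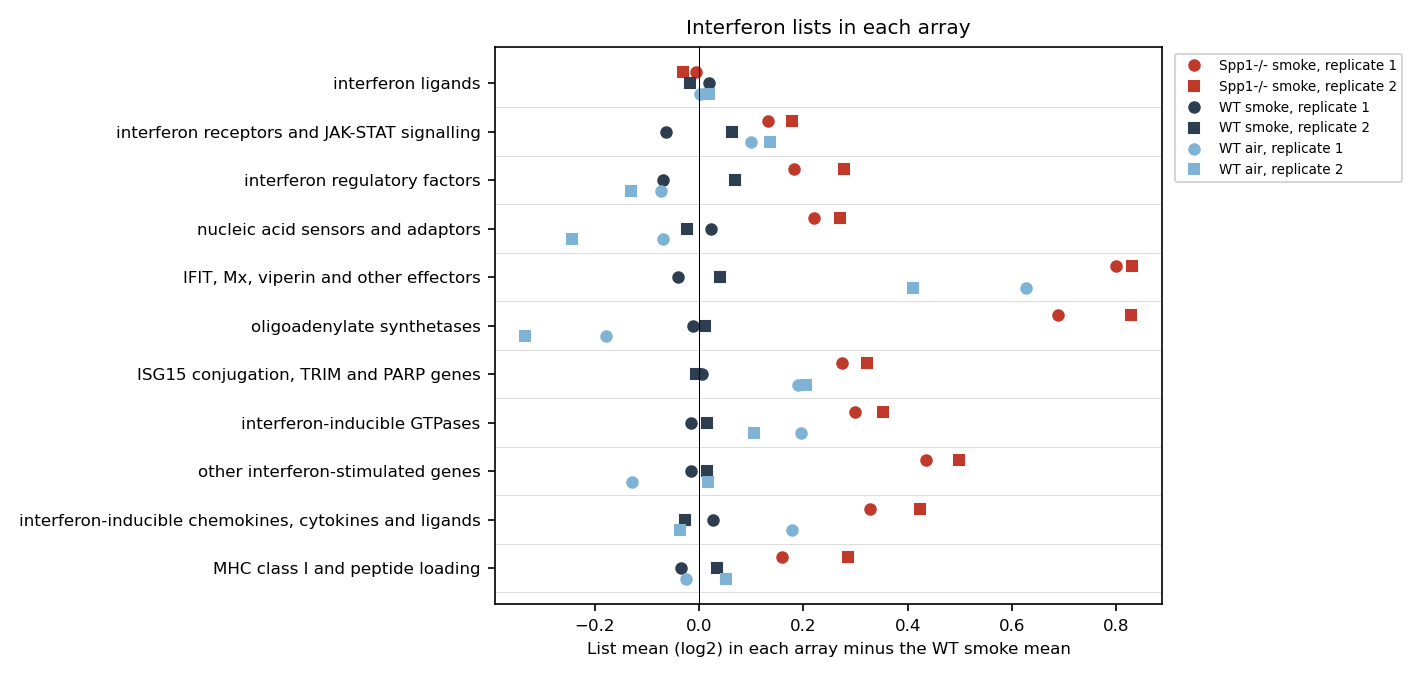
For each interferon list, the mean log2 level of its measured genes in an array is shown relative to the mean of the 2 WT smoke arrays, with circles for replicate 1 and squares for replicate 2 (Spp1-/- smoke red, WT smoke dark blue, WT air light blue). Both Spp1-/- arrays lie right of both WT smoke arrays in each list except the ligands, and the WT air arrays lie between the smoke groups for the effectors but left of both for the oligoadenylate synthetases.

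Beside the interferon lists, 12 genes were at least 2-fold higher in Spp1-/- cells. They were named after their values had been seen, except Slc10a6 and Csprs. Absence from the lists does not show that a gene is unresponsive to interferon. Cfb, complement factor B of the alternative pathway, stood at 12.02 and 12.12 in Spp1-/- smoke, against 10.47 and 10.98 in WT smoke (1.35, limma adjusted p = 0.396). Ifi213, a gene of the PYHIN family of DNA-binding proteins, stood at 10.75 and 11.20, against 9.83 and 9.11 (1.51, adjusted p = 0.469). Rassf6, a Ras association domain gene, stood at 8.74 and 8.65, against 7.28 and 7.01 (1.55, adjusted p = 0.162). The others were Epb41l3, Sema5a, Lpar4, Ing2, Hnrnpl, Atp10d and Rapgefl1, with differences of up to 1.27. Epb41l3 and Ing2 had no unadjusted limma p under 0.05 (0.0735 and 0.0648). Epb41l3 stood at 9.14 and 9.14, against 7.08 and 8.65, and Ing2 at 9.06 and 8.18, against 7.99 and 7.05, so that the arrays of a group lay far apart.

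In the lower direction no gene passed, and the leading differences were smaller. Ccng2, the gene of cyclin G2, an unconventional cyclin linked to cell cycle arrest, stood at 8.79 and 8.77 in Spp1-/- smoke, against 9.96 and 10.32 in WT smoke (-1.36 ± 0.14 SE, limma adjusted p = 0.344). Stbd1, a glycogen-binding protein gene, stood at 8.19 and 7.82, against 9.30 and 9.31 (-1.30 ± 0.14, adjusted p = 0.357). Htr2b, a serotonin receptor gene, stood at 8.44 and 8.57, against 9.46 and 9.61 (-1.03 ± 0.09, adjusted p = 0.245).

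The other leading lower genes differed by less than 2-fold. Fcrls, an Fc receptor-like gene of macrophages, stood at 10.19 and 10.18 in Spp1-/- smoke, against 10.74 and 10.70 in WT smoke (-0.54), and its second probe gave -0.29. Col6a1, a collagen VI chain of fibroblasts, stood at 8.10 and 8.05, against 8.90 and 8.71 (-0.73), and its second probe gave -0.41. Bcl7c differed by -0.73, but its other probes gave -0.08 and -0.05. The ETS factor gene Etv1 differed by -0.74, and the brighter of its dim probes gave 0.01. C2cd4a differed by -0.64, but its second probe gave 0.01. The transcripts C030013C21Rik and 6330407A03Rik had the remaining values, -0.87 and -0.85. Their limma adjusted p lay between 0.162 and 0.396. The other genes that were 2-fold lower were Amy2a5 (-1.82), an amylase gene of a family of close copies, and Naaa (-1.04), a lysosomal amidase gene. Both were named after their values had been seen.

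Some of these genes neighbour Spp1 in the genome. Of the 36 genes that were 2-fold different, 10 are on the chromosome of Spp1, which holds 5.8% of the measured genes: 7 were higher (Oasl2, Oasl1, Oas2, Slc10a6, Rassf6, Cxcl9 and Atp10d) and 3 lower (Ccng2, Stbd1 and Naaa). In gene order Slc10a6 lies 11 measured genes from Spp1, and Ccng2, Stbd1, Cxcl9, Naaa and Rassf6 lie between 60 and 95 measured genes away on the same side. Among the 100 measured genes nearest to Spp1, 50 on each side, 19 were higher without overlap and 9 lower, with a median of -0.0026. Over all genes 17.4% were higher without overlap and 18.9% lower. Of the 10 genes above, this window holds Slc10a6 alone, so its counts do not describe the stretch where the others lie. The part of the chromosomal neighbourhood in these differences was not tested.

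The comparison also bears on genes through which antigen presenting cells act on T cells, and these lists stayed near 0. Of 20 genes for MHC class II and co-stimulation, 3 were higher without overlap and 2 lower (median 0.06). The shares over all genes were 17.4% higher and 18.9% lower. The cathepsin gene Ctss, which trims the invariant chain, stood at 13.95 and 14.12 in Spp1-/- smoke, against 13.82 and 13.66 in WT smoke (0.30 ± 0.10 SE). H2-Eb2 and Cd40 differed by 0.21 and 0.28, and second probes gave -0.10 and 0.16. Of 15 Th17-polarising and interleukin-12 family genes, 4 were higher and 2 lower without overlap (median 0.00).

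Among these cytokines, Tgfb1 stood at 9.02 and 9.11 in Spp1-/- smoke, against 9.42 and 9.52 in WT smoke (-0.40 ± 0.08 SE, limma adjusted p = 0.469). Ebi3, a subunit of interleukin-27 and interleukin-35, stood at 9.14 and 8.88, against 8.64 and 8.58 (0.40 ± 0.11), and its partner Il27 differed by 0.28. Il6 was dim in all 4 smoke arrays, at 7.16 and 7.23, against 7.21 and 7.14, and so was Il23a, at 7.25 and 7.20, against 7.23 and 7.24. Il6 and Il23a were named after their values had been seen, and at such levels a difference may not be measurable on this array. Of 11 osteopontin receptor genes, 1 was higher without overlap and 2 lower (17.4% and 18.9% over all genes, list median 0.07). Cd44 stood at 13.50 and 13.78, against 13.61 and 13.54, and Itgav differed by 0.05, Itgb3 by -0.04 and Itga4 by 0.10.

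Lists of genes tied to smoke exposure and inflammation also had medians near 0. The 28 cytokine and chemokine genes had a median of -0.01, with 4 higher and 5 lower without overlap (17.4% and 18.9% over all genes). Ccl17 (-0.47), Tnf (-0.31) and Cxcl1 (0.53) led this list. The 27 matrix protease genes had a median of -0.03. In that list the gelatinase gene Mmp2 stood at 11.44 and 11.74 in Spp1-/- smoke, against 10.83 and 10.82 in WT smoke (0.76), the collagenase gene Mmp13 differed by 0.76 (0.09 for its second probe) and the inhibitor gene Timp1 by -0.50, with -0.48 for its second probe. Mmp12, the macrophage elastase, overlapped at 13.27 and 13.62, against 13.51 and 13.18.

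Metabolic and stress lists had medians between -0.13 and 0.06. The 26 lipid and lysosome genes had a median of 0.06, with Fabp4 at 0.43, Trem2 at -0.24 and Abcg1 at -0.27. The 24 ATF4 and amino acid genes had a median of -0.13, with 2 higher and 10 lower without overlap (17.4% and 18.9% over all genes). Asns, the asparagine synthetase gene, stood at 11.70 and 11.49 in Spp1-/- smoke, against 12.23 and 12.18 in WT smoke (-0.61 ± 0.10 SE, limma adjusted p = 0.428), and its second probe gave -0.40. Cebpb and Aars differed by -0.36 and -0.34. The 23 immediate-early genes had a median of 0.03, with Egr1 at -0.55 and Junb at -0.33 (0.04 for its second probe). The 20 glycolysis and hypoxia genes had a median of -0.03, with 1 higher and 5 lower without overlap. They included Stbd1 at -1.30, with Slc2a1 at -0.43 and Gapdh at -0.25. The 21 sterol and fatty acid genes had a median of -0.02, with Elovl6 at 0.63, Idi1 at 0.40 and Mvk at 0.38. The remaining function lists had medians of 0.00 (28 cell cycle genes, with Ccng2 at -1.36), -0.06 (25 antioxidant genes), -0.01 (20 NF-kappaB genes) and 0.03 (18 alternative activation genes). In these lists no gene passed.

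**Figure D5:**
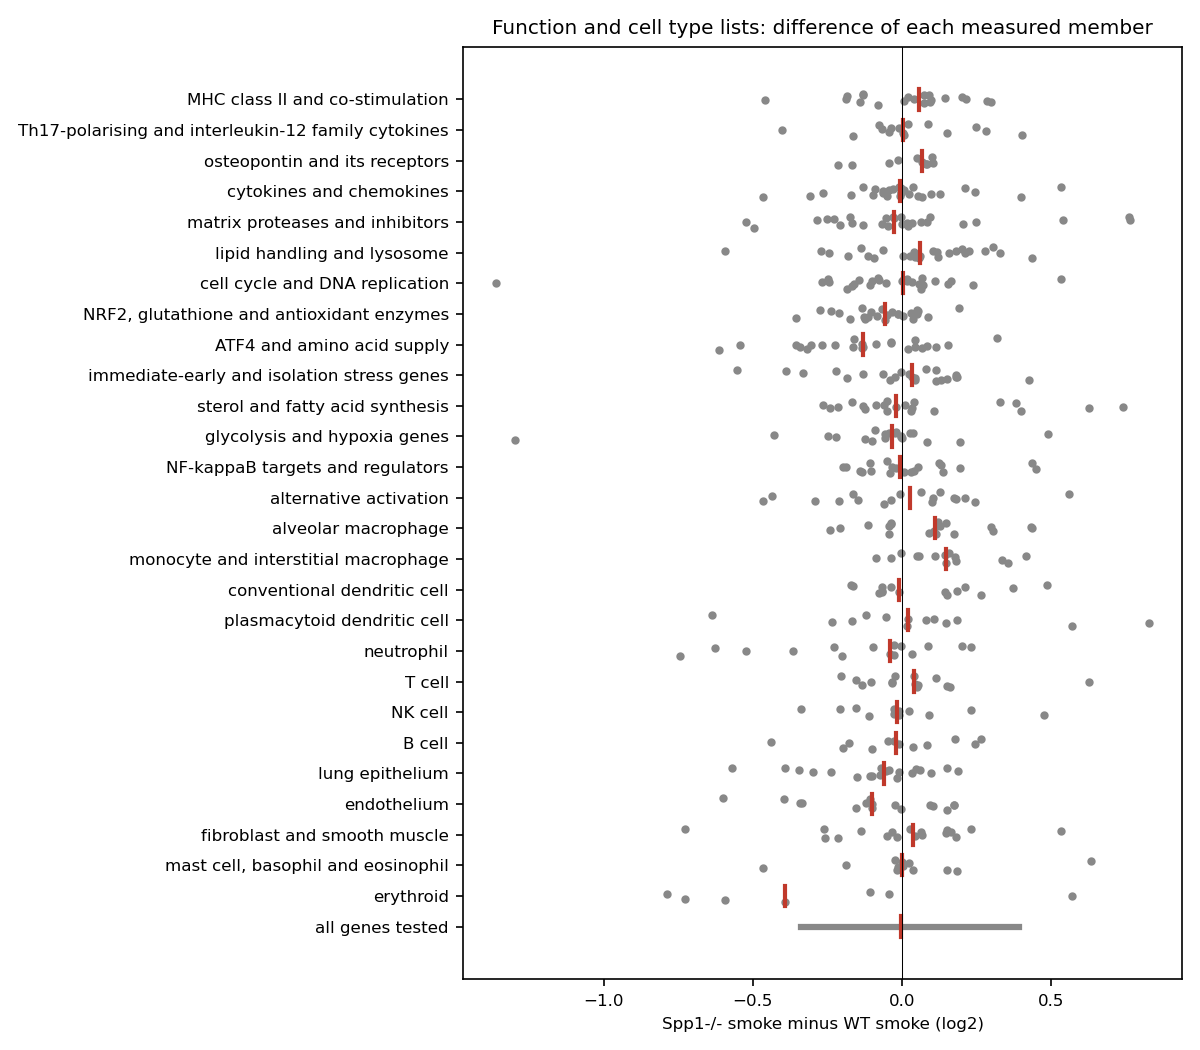
Each grey point is the difference of 1 measured gene (Spp1-/- smoke minus WT smoke, log2) on a function or cell type list, with the list's median as a red tick, and the bottom bar covers the central 95% of all 19057 genes (-0.34 to 0.39). The medians lie between -0.13 and 0.15 except for the erythroid list at -0.39.

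Marker lists of cell types were compared in the same way, again beside 17.4% of all genes higher without overlap and 18.9% lower. The summed intensity of the 14 monocyte and interstitial macrophage genes was 13.29 and 13.40 on the log2 scale in Spp1-/- smoke, against 13.14 and 13.14 in WT smoke, with 5 genes higher and 1 lower without overlap (median 0.15). Ms4a7 differed by 0.42 and F13a1 by 0.33. That of the 15 conventional dendritic cell genes was 13.36 and 13.35, against 13.18 and 13.20, with 4 higher and 2 lower (median -0.01). Of the 15, 7 had positive differences, so the typical member hardly differed. Kmo (0.48) and Ffar2 (0.37) led. A sum is weighted towards bright members, and Ffar2 stood at 12.06 and 11.91 in Spp1-/- smoke, against 11.71 and 11.53 in WT smoke. The part of these sums in the interferon differences was not tested.

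Plasmacytoid dendritic cells are strong producers of type I interferon. The summed intensity of their 13 marker genes overlapped, at 13.41 and 13.34 in Spp1-/- smoke, against 13.31 and 13.54 in WT smoke. The defining gene Siglech also overlapped, at 9.19 and 8.68, against 8.80 and 9.31. Of the 13, 2 were higher without overlap and 2 lower (17.4% and 18.9% over all genes), with a median of 0.02. Cox6a2 was lower, at 10.46 and 10.80, against 11.34 and 11.19 (-0.64, limma adjusted p = 0.501). Bst2 was higher (0.83) and Irf8 lower (-0.17). Bst2, Irf8 and Tlr9 of this list are on the interferon lists too. Alveolar macrophage markers (18 genes, median 0.11) summed to 17.73 and 17.92, against 17.75 and 17.70. Neutrophil markers summed to 12.99 and 12.60, against 12.85 and 13.08. Of the 15, 7 were lower without overlap and 2 higher, against 18.9% and 17.4% of all genes. Among the lower ones were the receptor genes Csf3r at 8.67 and 8.45, against 9.27 and 9.34 (-0.75, limma adjusted p = 0.396), and Cxcr2 (-0.20). S100a8 was higher, at 9.84 and 9.945, against 9.66 and 9.65 (0.23, limma adjusted p = 0.583).

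The summed intensities of T cell, NK cell, B cell, epithelium, endothelium, fibroblast and mast cell markers overlapped between the genotypes, with medians between -0.10 and 0.04. The 7 erythroid genes had a median of -0.39. The haemoglobin gene Hbb-bs stood at 13.55 and 13.98 in Spp1-/- smoke, against 14.08 and 15.02 in WT smoke (-0.79 ± 0.36 SE, adjusted p = 0.74), so that WT smoke replicate 2 stood apart. Without that array the erythroid median was -0.08, and over all settings tried it reached -0.74.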

How the data were processed

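The 6 samples were hybridised to Illumina mouse arrays, 1 array each. Extraction used Trizol and labelling an Ambion MessageAmp kit, per the labels' protocols. The authors deposited log2 intensities of 45281 probes, and the submitters' processing notes name limma. The sorted columns differed by at most 0.0056, as after quantile normalization; how background was treated is not stated. Another table, with 12 columns, was left out: none of its headings matches a label.

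A unique symbol was listed for 34885 probes and several for 18, and 10378 stayed unnamed here. Symbols were updated through Entrez identifiers for 34807 (RefSeq, GRCm38.p6). Each of 19057 genes kept its brightest probe, with no filter. The files name no genome build. The 4 smoke arrays were fitted with limma 3.58.1 in R 4.3.3 (2 residual and 2.27 prior degrees of freedom), adjusted by Benjamini-Hochberg and called under 0.05. The fit was tested on simulated data. With 2 arrays against 2, the smallest exact permutation p is 0.333.

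The rule for named genes took the called genes, up to 10 per direction by smallest p without overlap and above the median probe, up to 6 members of each interferon list and 3 of each other list by smallest p, and Irf7, Cd44, Itgav, Itgb3 and Itga4. Genes named outside it, such as Ifnb1, Ifng, Ifnar1, Tyk2, Isg15, Lgals3bp, Mmp12, Siglech and the genes that check the cell label, were chosen after their values were seen. Members and lists were chosen with earlier results of these data known. With 2 arrays per group, their number limits the precision. Alternatives are given at the end.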

Additional observations from a re-analysis of the deposited data

How the results depend on the processing

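The number of genes called higher by limma at adjusted p under 0.05 was 1. It stayed 1 with array weights, with centring on the annotated genes and with a 2-fold requirement. It was 6 with the brighter 50% of probes, 31 with an intensity trend and a robust prior, 16 with the floor of the values removed and an offset of 16, 0 with the mean of a gene's probes and 0 with all 6 arrays in the fit. The number called lower was 0 and became 3 with the trend and robust prior. Without each of the 4 arrays in turn, both counts ranged from 0 to 0. A lone array was then assumed to vary like the other group, and 1 residual degree of freedom remained.

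With the replicate number of the titles as a block, 0 genes were called higher and 0 lower, and Ifit3 had an adjusted p of 0.102. Deviations of same-numbered arrays correlated at -0.026 across genes, and nothing in the labels says that a number marks a shared mouse, litter or day. Over these settings the 20 leading genes kept their direction. Their groups do not overlap, so leaving out an array could not change it. Array weights, the trend and robust prior, the block, the brighter probes and the fit of all 6 arrays leave the difference itself unchanged. The kept direction is therefore no independent check in these settings. Of 154 named genes, 3 changed sign with the mean of probes, 4 without Spp1-/- smoke replicate 2 and 2 without WT smoke replicate 1, all with small differences. The mean of probes shrank the differences of Usp18 to 1.14, of Oasl2 to 1.09, of Oasl1 to 0.99 and of Bcl7c to -0.29, since fainter probes of these genes differed less. The floor of the values compresses differences of dim genes: with it removed Irf7 differed by 2.61 and Cxcl10 by 1.68, and both then passed (limma adjusted p = 0.037 and 0.0368). The median over the interferon lists ran from 0.14 to 0.27.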
